A study of Mus musculus with 5 samples.

Results

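The peaks described here are PABPC1 eCLIP peaks that the deposited annotation places in a 3′ UTR, that lie inside the transcript listed for them, and whose midpoint is more than 1000 bases from that transcript's 3′ end. They are called far peaks. There were 698 of them among 14092 PABPC1 peaks, in 322 listed genes. Only 2682 of the 11263 peaks annotated to a 3′ UTR (23.8%, with a 95% interval from 23.0 to 24.6%) lay inside their listed transcript and so had a distance, and 26.0% of those (24.4 to 27.7%) were far. The other 1984, within 1000 bases of the listed end, are called near peaks. The rule used position and annotation and no measured value. The 8581 3′ UTR peaks outside their listed transcript could not be placed by this rule, because the transcript the tables list for a peak need not be the one whose 3′ UTR holds it.

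The study crosslinked and immunoprecipitated RNA with anti-PABPC1 or anti-CCT3 antibody from GC-2spd(ts), a mouse line labelled as spermatocyte cells, with RNase I trimming and an input library from the same lysate. It comprised 1 PABPC1 immunoprecipitation, 1 PABPC1 input, 2 CCT3 immunoprecipitation samples whose labels carry the same library name, and 1 CCT3 input, all from this 1 line with no treatment or genotype named. Each PABPC1 peak has the authors' fold and p of the immunoprecipitation, with the fold taken here as relative to input. With 1 PABPC1 list there is no replicate check, so shares carry Wilson 95% intervals for counting error only, which treat neighbouring peaks as independent although they are not. Read depth per peak is unknown.

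PABPC1 is the main cytoplasmic poly(A)-binding protein. It coats the poly(A) tail added after cleavage at the 3′ end of an mRNA, contacts the translation factor eIF4G, and takes part in the control of deadenylation. Many genes carry several cleavage and polyadenylation sites, so a peak well inside the longest 3′ UTR can lie next to the end of a shorter mRNA. It can also lie at the end of a different gene, or on an A-rich stretch of RNA. The sequence under the peaks was not analysed here, so A-rich stretches and poly(A) signals were not examined.

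The far peaks were mostly within a few kilobases of the listed end. The median distance was 2594 bases (interval of the median 2390 to 2917), and 10% of the peaks were closer than 1197 bases. The limit of 5000 bases held 66.2% of them (462 peaks), whereas 21.9% (153 peaks) were beyond 10000 bases and 97 beyond 20000. Distances are along the genome, with any introns included. The listed transcripts had a median span of 11418.5 bases where they carried far peaks and 4829 where they carried near peaks. At the limit itself, the closest far peaks were in Arl6ip6 at 1000.5 bases, Pgrmc1 at 1002.5 and Stk35 at 1011, with log2 folds of 4.05, 4.15 and 4.22. The near peaks just short of it were in Ppp1r15b at 996 bases, Bola3 at 992.5 and Atp6ap2 at 991.5, with log2 folds of 4.02, 4.57 and 4.46.

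The folds of far and near peaks had overlapping intervals. The median log2 fold was 4.25 for far peaks (interval 4.15 to 4.33, range 3.02 to 9.60) and 4.31 for near peaks (4.25 to 4.38). A log2 fold of at least 6 was listed for 48 far peaks in 29 listed genes, or 6.88%, against 7.80% of all PABPC1 peaks and 8.52% of near peaks. The far minus near difference was −1.64 percentage points, with an interval of −3.75 to 0.773 that spans 0. The ceiling of the −log10 p values, 400, was reached by 34 far peaks in 18 genes (4.87%), against 4.80% of all PABPC1 peaks. A log2 fold of at least 4 together with a −log10 p of at least 5 was met by 363 far peaks (52.0%), against 49.5% of all PABPC1 peaks. The median widths of far and near peaks were 49.5 and 50 bases.

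The median fold was highest for peaks at the transcript end itself and did not rise or fall steadily across the far range. The 305 near peaks within 50 bases of the listed end had a median log2 fold of 4.64, and the 531 at 200 to 500 bases had 4.16. Far peaks at 1000 to 1500 bases had a median of 4.23, those at 5000 to 10000 bases 4.12, and the 97 beyond 20000 bases 4.56. The last value included 13 Boll peaks and 12 peaks at the Msl1 and Sycp3 loci described below, and the other 72 had a median of 4.32. The quartiles of all these distance classes overlapped.

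**Figure D1:**
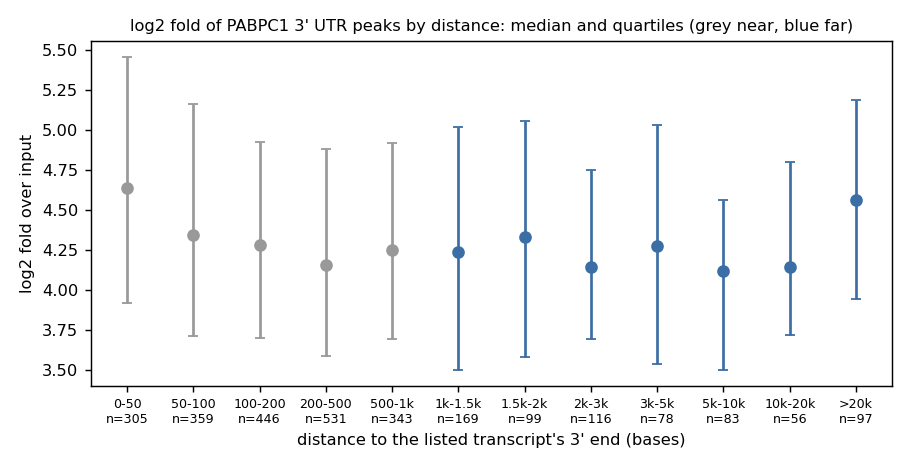
The log2 fold over input (vertical axis) of PABPC1 3′ UTR peaks in classes of distance to the listed transcript's 3′ end (horizontal axis, bases), with points at the median and bars from the lower to the upper quartile, grey for near and blue for far peaks. The class within 50 bases has the highest median, 4.64, and the bars of all classes overlap.

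The strand of the far peaks separated them from near peaks. Of 698 far peaks, 109 (15.6%, 13.1 to 18.5%) were on the strand opposite to the listed gene, against 33 of 1984 near peaks (1.66%, 1.19 to 2.33%). The difference was 14.0 percentage points (interval 11.4 to 16.9). By distance the share was 5.33% at 1000 to 1500 bases, 26.9% at 3000 to 5000 bases, 31.3% at 5000 to 10000 bases, 28.6% at 10000 to 20000 bases and 18.6% beyond, so it was not highest at the longest distances. RNA from the opposite strand is not an mRNA of the listed gene.

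To ask which gene each far peak fell in, the RefSeq gene spans of the same build were searched for another gene on the peak's own strand. Such a gene covered 122 far peaks (17.5%, 14.8 to 20.5%) against 3.02% of near peaks, a difference of 14.5 percentage points (11.7 to 17.5). These peaks lay in 50 other genes. The listed gene was on the opposite strand for 100 of them, while for the other 22 it was on the same strand. For some of these 22, such as the Casc3 and Bhlhb9 peaks described below, the RefSeq span of the listed gene did not cover the peak. Where both RefSeq spans covered it, either gene may own the peak. Their median distance to the listed end was 7850 bases, and to the 3′ end of the other gene 243.2 bases. The other gene's end was within 1000 bases for 93 of the 122, within 500 for 81 and within 100 for 27. A further 126 far peaks (18.1%) in 52 genes had no other gene over them, but the RefSeq span of the listed gene itself ended within 1000 bases downstream, or in 3 cases before the peak. The median distance of these 126 was 239.25 bases to the RefSeq end and 2744.8 to the listed end. The remaining peaks were 441 (63.2%, 59.5 to 66.7%) on the listed strand, with no other gene found and more than 1000 bases from the end in both annotations, in 231 genes, and 9 on the opposite strand with no gene found. For the 441, the RefSeq span of the listed gene was not required to cover the peak, so some may lie outside it. RefSeq strand was known for 85.9% of protein-coding genes and 57.3% of all genes, and 29 far peaks lay under a gene of unknown strand, so some other genes may have been missed.

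**Figure D2:**
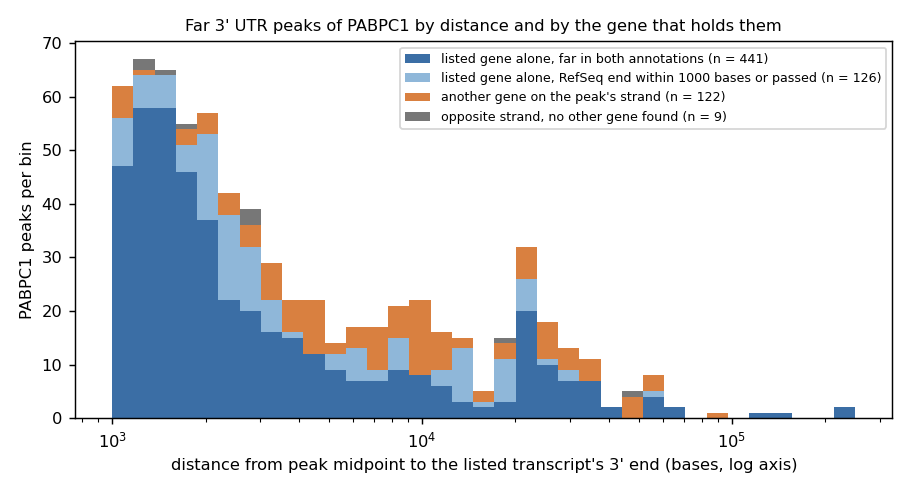
Number of far PABPC1 peaks (vertical axis) by distance from the peak midpoint to the listed transcript's 3′ end (horizontal axis, bases, log scale), stacked by the gene that holds the peak. The 441 peaks with the listed gene alone and more than 1000 bases from the end in both annotations (dark blue) crowd towards 1000 bases. The 122 peaks in another gene (orange) are spread out to longer distances.

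The highest folds among all far peaks were listed for Casc3 at a site that also lay inside Msl1, on the same strand. The listed Casc3 transcript covered this site. In RefSeq, the span of Msl1 covered it and the span of Casc3 did not. Msl1 encodes a subunit of a histone acetyltransferase complex, and its 3′ region overlaps the listed transcript of Casc3, a component of the exon junction complex, on the plus strand of chromosome 11. All 6 far peaks listed for Casc3 lay inside Msl1, 1505 to 2234 bases after the listed Casc3 start. From 98806410 onward, 5 adjoining peaks ran to 98806496, with log2 folds of 7.32, 9.60, 9.21, 8.35 and 6.23, and the sixth, at 98807139 to 98807169, had 5.02. They lay 26660 to 27388 bases from the listed Casc3 end and 708 to 1436 bases from the RefSeq end of Msl1. The first 4 of the adjoining peaks were within 50 bases of the end of another Msl1 transcript listed in the tables, from 8 bases before that end to 42 bases past it. The strongest far site was therefore beside a listed Msl1 transcript end, and the weaker sixth peak lay further along.

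Sycp3, which encodes a lateral element protein of the synaptonemal complex that holds paired meiotic chromosomes, carried the second strongest group. Its 6 peaks were listed under Chpt1, a phospholipid synthesis gene on the opposite strand of chromosome 10. From the peak farthest from the Sycp3 end to the closest, the log2 folds were 4.33, 5.22, 5.14, 6.66, 8.10 and 7.82, at 265.5, 212, 169, 113, 55 and 28.5 bases from that end. The folds were higher close to the end, and the last 3 peaks, from 88473083 to 88473224, had −log10 p values at the ceiling. These peaks were 20225.5 to 20462.5 bases from the listed Chpt1 end. The seventh peak listed for Chpt1, at 88472817 to 88472874 on its own strand, had a log2 fold of 6.12 and lay 28.5 bases from the end of another listed Chpt1 transcript.

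Becn1, an autophagy initiation factor, and Psip1, a chromatin-bound coactivator, each carried 8 far peaks that were listed under a neighbour. The 8 Becn1 peaks were listed under Cntd1, a meiotic crossover gene, and lay 175 to 511 bases from the Becn1 end with log2 folds from 3.23 to 6.02. The other 8 Cntd1 peaks were on the Cntd1 strand, 106 to 1060.5 bases from the RefSeq end of Cntd1, with log2 folds from 3.15 to 4.87. Cntd1, which headed the genes by number of far peaks with 16, thus held peaks of 2 convergent genes whose 3′ ends overlap. A peak of each strand shared bases there, as was also seen at Msto1, and 4 far peaks in all overlapped a PABPC1 peak of the other strand. The 8 Psip1 peaks, listed under Snapc3, formed 1 group of 3 at 38 to 192.5 bases from the Psip1 end and 1 group of 5 at 934 to 1236 bases. Their highest log2 folds were 5.24 in the first group and 4.98 in the other.

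Similar pairs were seen at other loci. Sav1, a scaffold of the Hippo kinases, had 6 peaks listed under Gm3086, 3 at 43.5 to 136.5 bases from the Sav1 end with log2 folds of 5.33 to 6.13 and 3 at 969 to 1106.5 bases with 5.28 to 6.93. Mllt10, a chromatin reader, had 6 listed under Dnajc1, and the closest to its end, at 15.5 bases, had a log2 fold of 5.89. Iqcb1, under Eaf2, had a peak of 7.11 at 32.5 bases from its end, Supt16, a subunit of the histone chaperone FACT, had peaks up to 6.15 under Rpgrip1, and Eif4enif1, the eIF4E transporter, had 3 up to 5.53 under Sfi1. A log2 fold of at least 6 was listed for 17 of the 122 peaks in another gene (13.9%). It was listed for 23 of the 441 peaks far from the end in both annotations (5.22%), a difference of 8.72 percentage points (3.09 to 16.2). Without the 12 Msl1 and Sycp3 peaks it was 2.97 points (−1.59 to 9.82), so this difference rested on those loci. The other gene was not always close to its end. The 3 Nsmce3 peaks also lay inside Fam189a1 on the same strand, at least 115668.5 bases from its end, but they were 77.5 to 235 bases from the RefSeq end of Nsmce3 itself, with log2 folds of 4.15 to 5.42.

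**Figure D3:**
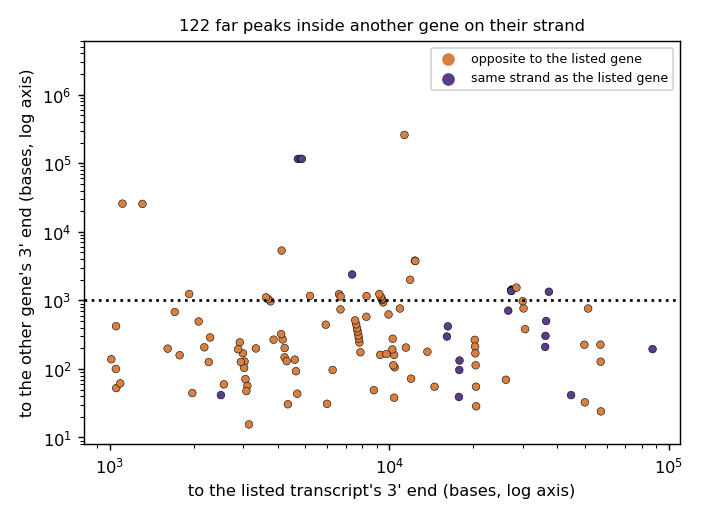
Each point is 1 of the 122 far peaks inside another gene on its strand, placed by its distance to the listed transcript's 3′ end (horizontal axis, bases, log scale) and to the other gene's 3′ end (vertical axis, bases, log scale), in orange where the listed gene is on the opposite strand and purple where it is on the same strand. The dotted line marks 1000 bases, and 93 points are at or below it.

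Where only the listed gene held the peak, several groups of far peaks lay within 1000 bases of an earlier RefSeq end of that gene. Sod3, the extracellular superoxide dismutase, had 13 far peaks with log2 folds of 3.59 to 5.73, at 1991 to 2642 bases from the listed end but 311 to 962 bases from the RefSeq end. The strongest Sod3 peaks, 5.73 and 5.48, adjoined each other. Chchd4, an import oxidoreductase of the mitochondrial intermembrane space, had 5, at 81 to 242 bases from the RefSeq end. Their log2 folds were 4.71, 5.51, 6.35, 6.72 and 7.63 from the closest to the farthest, the reverse of the order seen in Sycp3. Fignl1, an ATPase of homologous recombination, had 5 at 154 to 679.5 bases from the RefSeq end and 13011 bases or more from the listed one, led by 7.44 with the others at 3.38 to 5.71. Ddx25, a helicase of male germ cells, had 3 at 55 to 141 bases from its RefSeq end and at 5256 bases or more from the listed end, with a log2 fold of 5.97 on the closest and 3.32 on the farthest. Rnf11, a RING finger gene, had 8 with log2 folds of 3.56 to 5.52, of which 2, the one with the highest fold among them, lay past the RefSeq end.

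Another annotated end, of a transcript in the tables or of a RefSeq gene on the same strand, lay within 50 bases of the midpoint for 31 far peaks (4.44%, 3.15 to 6.24%) at 27 listed genes. It was an end of the listed gene for 13 and of another gene for 18. Besides Msl1 and Sycp3, these included Tmem259, with a log2 fold of 6.03 at 11.5 bases, Obsl1 with 5.62 at 39 bases, Srsf2, a splicing factor, with 5.05 at 30.5 bases under Mettl23, and Tuba1a, an alpha tubulin, with 3.78 at 39 bases under Tuba1b. Only 8684 transcript ends are named in the tables, so this share is a lower count of annotated ends. Among the 441 peaks far from the end in both annotations the share was 1.13% (0.485 to 2.63%). No such share was taken for near peaks or for all PABPC1 peaks, so the 4.44% has no background beside it.

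Those 441 peaks were the bulk of the far peaks and were closer to the listed end, at a median of 1995 bases and with 75.3% within 5000. Their median log2 fold was 4.13 (4.02 to 4.26). Boll had the most, with 13. Boll encodes a germ cell RNA-binding protein of the DAZ family. Its peaks ran over 55269090 to 55270463 on chromosome 1, at 20454 to 21781.5 bases from the listed end and still farther from the RefSeq end. The 4 peaks from 55269090 to 55269556 had log2 folds of 4.99, 5.34, 4.05 and 4.15. The 9 from 55270028 to 55270463 had a lowest value of 3.63, a median of 5.22 and a highest value of 6.28, the last at the upstream edge of the group. No Boll peak was near the listed end.

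Atxn7l3b, which encodes a small relative of a SAGA complex subunit, had a far group that was stronger than its near one. Its 8 far peaks lay between 1212 and 1379.5 bases from the end, covering 177 bases, with log2 folds of 4.52, 4.90, 4.04, 4.42, 6.27, 7.03, 7.05 and 6.93 going away from the end. The 7 near peaks had log2 folds of 3.77, 3.63, 3.22, 3.30, 3.01, 4.19 and 4.35 in the same order. The 4 peaks farthest from the end were above every other peak of the gene, near or far. Hnrnpa0, which encodes an hnRNP of the A/B group, had the opposite order. Its 8 far peaks ranged from 3.04 to 5.41 with a median of 4.21, and its 6 near peaks from 4.47 to 7.07 with a median of 4.73, the highest of them at 30.5 bases from the end.

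**Figure D4:**
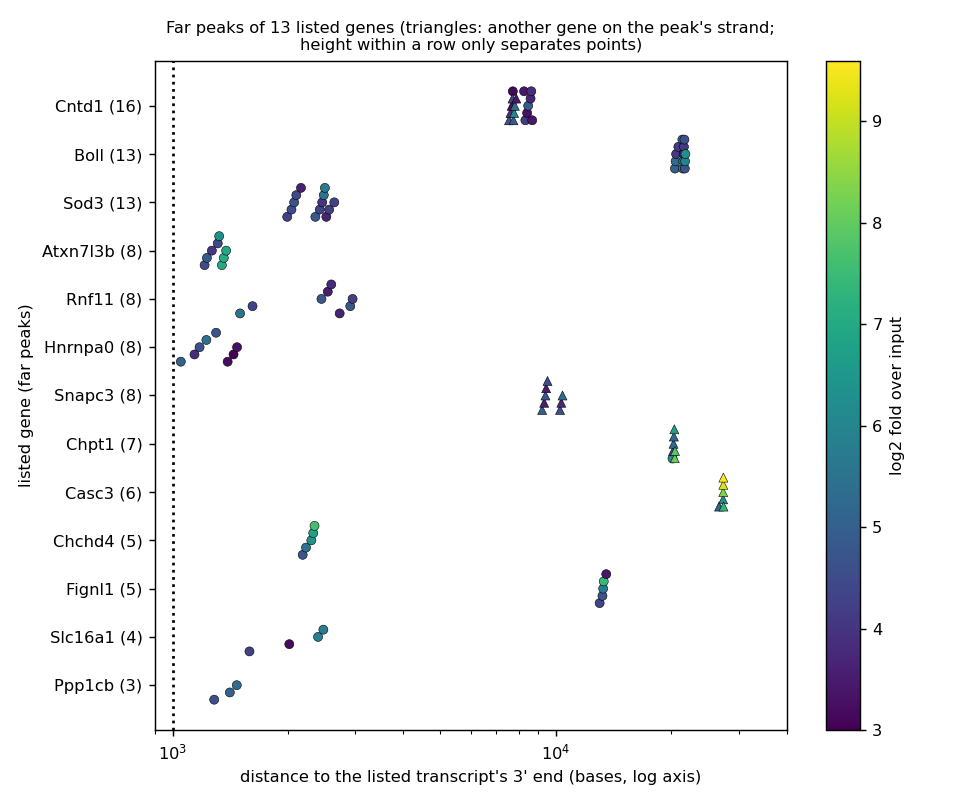
Distance of each far peak from the listed transcript's 3′ end (horizontal axis, bases, log scale) for 13 listed genes, with the number of far peaks in brackets, coloured by log2 fold over input. Circles are peaks with the listed gene alone on their strand and triangles those inside another gene on their strand, such as the Casc3 row, whose peaks also lie inside Msl1 and reach 9.60. The dotted line is the limit of 1000 bases.

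The number of far peaks per gene was uneven. A single far peak was found in 158 of the 322 genes, while 28 genes with 5 or more carried 192 of the 698. Peaks of the same gene and strand within 10 bases of each other formed 572 sites, of which 84 (14.7%) joined 2 or more peaks and the largest joined 6. Near peaks were joined about as often, in 15.1% of 1624 sites. Looser groups were seen in some genes. Slc16a1, the monocarboxylate transporter MCT1, had log2 folds of 5.74 and 5.81 at 2474 and 2396.5 bases, and 3.18 and 4.28 at 2016 and 1587 bases. Cdc73, a subunit of the PAF1 complex, had 4 peaks with log2 folds of 4.51, 5.51, 6.13 and 7.02, which were higher with distance from the end, and Hcfc2 had 3 up to 6.91 at 1980 to 2062 bases.

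Most genes with a far peak had no near peak among the 3′ UTR peaks that had a distance. The 8581 3′ UTR peaks outside their listed transcript are in neither count, so such a gene may still have peaks at its end. Tpm1, for example, had 2 far peaks and no near peak, but 11 peaks annotated to a 3′ UTR. The listed genes also include some whose far peaks lay in another gene, such as Snapc3. Near peaks were present in 86 of the 322 listed genes (26.7%, 22.2 to 31.8%), and a near peak without a far one was listed in most of the 1022 genes with near peaks, since 8.42% of those had both. In the 86 genes, the far peaks were more often the weaker ones. The median of the gene-wise differences between the far and the near median log2 fold was −0.44 (interval −0.58 to −0.13), and the far median was higher in 27 genes (31.4%, 22.6 to 41.8%). The highest peak was a far one in 30 of 86 genes (34.9%). With only the 82 genes whose far peaks were on the listed strand with no other gene found, the difference was −0.45 (−0.60 to −0.16). The genes are not replicates of the experiment, and the difference has no replicate check.

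Among 14 genes with at least 3 peaks of each kind, far peaks were above near peaks by most in Atxn7l3b, at 1.95 log2 units between medians, then Coa5, a cytochrome oxidase assembly factor, at 1.59, and Ormdl3, a regulator of sphingolipid synthesis, at 0.83. The far Coa5 peaks had 5.25, 5.22 and 4.01 and the near ones 3.64, 5.19 and 3.56, so the groups overlapped. The far Ormdl3 peaks had 3.18, 4.93 and 4.38, and the near ones 3.16 to 3.99, again with overlap. The largest differences the other way were in Dut, a dUTPase, at −2.68, Kbtbd7, a ubiquitin ligase adaptor, at −0.87, and Wnk1, a kinase of ion transport, at −0.79. The 3 far Dut peaks had 3.48, 3.67 and 5.32 and the 3 near ones 6.35, 5.90 and 6.83, without overlap. All 6 Dut peaks lay between 897 and 1127.5 bases from the end, so here the limit of 1000 bases ran through a single group and the difference is one of neighbouring peaks.

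**Figure D5:**
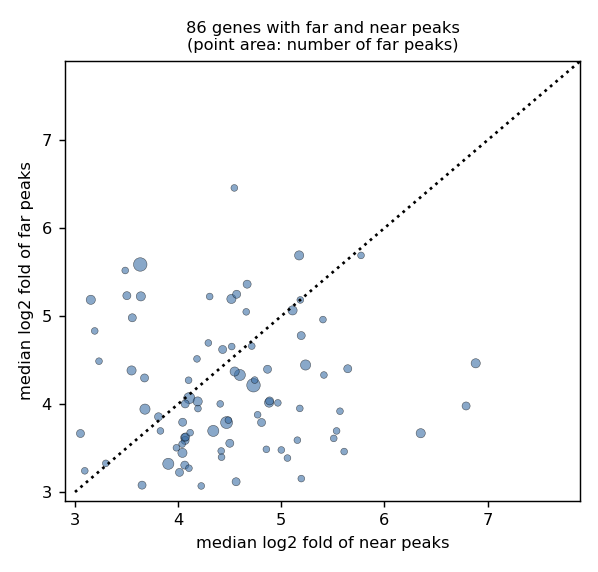
Median log2 fold over input of the near peaks (horizontal axis) and of the far peaks (vertical axis) in the 86 genes that have both, with point area growing with the number of far peaks and a dotted line of equality. The far median is above the line in 27 genes, Atxn7l3b among them at 5.59 against 3.63.

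Among gene lists for poly(A) biology, 5 of 23 cleavage and polyadenylation factor genes held a far peak, and 12 of the 23 had a PABPC1 peak of any kind. Over all 21896 RefSeq protein-coding genes, 4947 (22.6%) were listed with a PABPC1 peak. Far peaks were held by 327 genes on their strand, set here against the same 21896 (1.49%). Of the listed genes with a far peak 95.65% were protein-coding, so the 327 may include some that are not. Among the 4947, 289 (5.84%) held a far peak. Where the RefSeq spans of the listed gene and another gene both covered a peak on its strand, it was counted for the listed gene. Cpsf2, a subunit of the cleavage and polyadenylation specificity factor, had 1 peak at a log2 fold of 6.98, 2483.5 bases from the end. Ppp1cb, a protein phosphatase 1 catalytic subunit, had 3 at 5.27, 5.06 and 4.62, below its highest near peak at 7.03. Cstf2t, the testis-expressed form of the cleavage stimulation factor subunit, had 2 up to 4.27, and its 2 near peaks reached 5.35. Pcf11 had 2 up to 4.24, and Cpsf7 had 2 up to 3.19 listed under Tmem216. Of 32 genes for poly(A) tail binding and deadenylation, 19 had some PABPC1 peak and 1, Larp4b, held a far peak, at 3.69. A count of 1 on a list of this length says little beside the 1.49% and 5.84% given above. The lists were chosen with earlier results known, and no test of them was made.

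Among 48 genes for hnRNPs, ELAV and other mRNA-binding proteins, 7 held far peaks and 30 had a PABPC1 peak of any kind, beside the shares of 1.49% and 22.6% given above. Among protein-coding genes listed with a PABPC1 peak, the share that held a far peak was 5.84%. The median of the highest log2 fold in each of the 7 was 4.64. Beside Hnrnpa0 they were Qk, the quaking splicing and stability regulator, at 5.85, Hnrnpdl at 5.22, Hnrnpab at 4.64, Hnrnpd at 3.50, Syncrip at 3.34 and Zfp36l2, a factor of AU-rich element decay, at 3.27. Of 29 genes chosen as textbook cases of short and long 3′ UTR forms, 8 had a PABPC1 peak of any kind and 1, Slc16a1, a far one. No far peak was held by any of 16 glucose and amino acid transporter genes, 35 cell cycle genes or 15 genes of the microRNA machinery, of which 6, 15 and 5 had some PABPC1 peak. Lists of this length say little beside a share of 1.49%.

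The label of spermatocyte cells was set against marker genes. Of 30 meiotic markers, 1 (Sycp3) held far peaks, as did 1 of 15 spermatid markers (Spaca1, an acrosome membrane protein, at 4.42), 1 of 11 Sertoli markers (Sox9 at 4.83, above its near peak at 3.19), and none of 7 Leydig or 19 fibroblast markers. The share of genes with a far peak given above was 1.49%, so single markers say little of any class. PABPC1 peaks of any kind were listed for 10 of 30 meiotic, 11 of 15 spermatid, 6 of 11 Sertoli, 6 of 7 Leydig and 11 of 19 fibroblast markers. The share over all protein-coding genes was 22.6%. All 5 classes had listed markers, and the meiotic class had the lowest share. These counts are by listed gene, without regard to strand. Their part in the far peaks was not tested.

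At the longest distances the annotations differed in some cases and not in others. The listed end was farthest for 2 Wdr70 peaks, at 219321.5 and 219696.5 bases, with log2 folds of 4.19 and 4.56, and the RefSeq span gave nearly the same distances. For Zfp536, a zinc finger gene, the peak was 154470.5 bases away at 3.69. The Nopchap1 peak was 122538.5 bases from the listed end and 2868.5 from the RefSeq end, at 3.27. The Bhlhb9 peak, 87590.5 bases from the listed end, was 194.5 bases from the end of Gprasp1, a receptor sorting gene, at 3.26. Of the 236 far peaks beyond 5000 bases, 78 (33.1%, 27.4 to 39.3%) were on the opposite strand or in another gene, against 53 of 462 (11.5%) within 5000.

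Few far peaks overlapped a CCT3 peak. Of the 698, 5 overlapped a peak of the first CCT3 list by at least 1 base (0.716%, 0.306 to 1.67%) and 6 one of the second. Of the 1984 near peaks, 7 (0.353%) and 9 (0.454%) did so. The intervals of the far minus near differences spanned 0 for the first list (−0.191 to 1.33 points) and for the second (−0.212 to 1.43). No such share was taken over all PABPC1 peaks, so only the near peaks stand beside these counts. Overlaps were counted without regard to strand. The 6 of the second list were all on the strand of the PABPC1 peak, and no strand was read for the first list. The 5 were in Zbtb9, with a PABPC1 log2 fold of 4.17 and a CCT3 log2 fold of 6.21, in Ttc33 under Ptger4 with 4.15 and 3.63, and in 4930453N24Rik with 3.36 and 6.15. Zfp36l2 had 3.27 and 3.31, and Ttc19, an assembly factor of respiratory complex III, had 3.13 and 3.12. None of the 5 had a PABPC1 fold above the far median, and all lay in annotated 3′ UTRs in the CCT3 list too. The second list added Fignl1, at 3.38 and 4.01.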

How the data were processed

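The deposited −log10 p values and log2 folds are the authors' own, with 1 of each per peak. In the PABPC1 and second CCT3 tables their columns are unnamed and were read from their ranges as the quantities named in the first CCT3 table. The peak strand came from another unnamed column of these 2 tables, read as strand from its values. All results by strand or by gene on the peak's strand rest on that reading. The submitters' processing notes name bcl2fastq 2.20 and mm10, whereas the aligner, peak caller and annotation tool are not stated in the labels or headers used here. Both values were used only to describe, rank or filter peaks of a list. Distances ran from the peak midpoint to the 3′ end of the listed transcript on the listed gene's strand. RefSeq spans (GRCm38.p6) were matched by gene ID for all 322 listed genes, and their strands came from the deposited tables or the RefSeq promoter table. Shares were given Wilson and differences Newcombe 95% intervals, and medians order-statistic intervals. All values were computed in Python 3.11.15 with the packages pandas 2.3.3, scipy 1.17.1 and numpy 2.4.6, and plots from matplotlib 3.10.9. No test across samples was possible with 1 list. The search for an overlying gene was run on simulated peaks, and each time it found a gene ending at the planted distance or nearer. It could not show whether that gene was the planted one. The distance and strand checks on simulated peaks only repeated their definitions.

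The members and lists were chosen with earlier results of these data known. Named genes were the 8 with most far peaks, those of the 8 highest folds and of the 5 longest distances, the peaks beside the limit, the 3 largest differences each way, CCT3 overlaps, and up to 4 per list. Others, such as Cdc73, Hcfc2, Ddx25, Nsmce3, the other genes that hold peaks, the ends within 50 bases and the last members of the longer lists, were chosen after their values were seen.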

Additional observations from a re-analysis of the deposited data

How the results depend on the processing

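The 7 results were recomputed under other settings, and 23 of the 46 recomputed values were close to the reported ones: shares and medians inside the reported interval, counts within 1.5 times. At a log2 fold of at least 4 and a −log10 p of at least 5 there were 363 far peaks in 189 genes, since fewer peaks pass. Near peaks were present in 19.6% of these genes, and 6.34% of far peaks had another end within 50 bases. The median log2 fold was 4.89, which the cut on fold raises by itself. A limit of 500 bases gave a far share of 38.8% and near peaks in 32.3% of far genes. A limit of 2000 bases gave 430 far peaks (16.0%) in 191 genes, 20.9% with a near peak. Measured to the RefSeq end, which gave a distance to 7476 peaks, 2474 (33.1%) were far, in 1107 genes, and 33.9% of these had a near peak. With peaks on the listed gene's strand alone the far share was 23.2%. With 1 peak per gene the median log2 fold was 4.50. Another end lay within 100 bases for 9.89% and within 25 bases for 1.15%. Peaks with the listed gene alone and far from the end in both annotations, an alternative chosen after seeing the data, numbered 441. Near peaks were present in 34.6% of their genes, the median was 4.13 and another end lay within 50 bases for 1.13%. Apart from counts that fall because a setting removes peaks, and the median under the cut on fold, the causes of these changes were not tested. Counts of poly(A) signal hexamers and A-rich stretches were not run, as peak sequence was not analysed here. No paired analysis was possible because PABPC1 has a single list. Read depth is unknown, and an end where no peak was listed may still bind PABPC1.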
